A study of Homo sapiens with 6 samples.

Results

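The genes described are 9 regulators of the PI3K and mTOR pathway, PIK3CD, PIK3R1, INPP5D, AKT1, TSC1, TSC2, RHEB, MTOR and RPTOR. They were selected by symbol in the authors' deposited table and joined by gene identifier to the raw counts, and all 9 of 9 were found among 63677 genes. RNA came from RPMI-8402 cells, an established line of human T-ALL (acute lymphoblastic leukaemia of T cells), with stable expression of Cas9, the nuclease that cuts DNA where a guide RNA directs it. All samples carry the genotype label MYC_KO, and they differ in treatment: 3 received DMSO, the solvent control, and 3 received doxycycline for 72 hours, which switched on guide RNAs against MYC. No sample received doxycycline without guides, and neither the guides' sequences nor whether the line is 1 clone is given in the sources used here. Nothing in the labels says that the 3 samples of a group were separate cultures, so p-values reflect only how far these samples vary, and that variation may be technical.

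As background, class I PI3 kinases add a phosphate to a membrane lipid and make PIP3, which recruits the kinase AKT, and lipid phosphatases remove phosphates from PIP3. AKT inhibits the TSC1-TSC2 complex, which switches off the small GTPase RHEB; active RHEB at the lysosome turns on the kinase mTOR in complex 1 (mTORC1), where RPTOR binds substrates. The pathway drives growth, protein synthesis and survival of T cells and is frequently active in T-ALL.

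In the doxycycline samples, where 13.8% of all tested genes rose and 15.5% fell, PIK3CD, INPP5D and TSC2 rose and RHEB fell. They stood at 1.16, 1.16, 1.19 and 0.855 times the DMSO level, and the other 5 genes did not pass the test. The rises were in a kinase subunit that makes PIP3, a phosphatase that consumes it and the subunit that inactivates RHEB, and the fall was in RHEB itself. The 3 genes that rose had GC-rich transcripts, and fold changes followed GC content across all genes. RPTOR and AKT1, with 59.8% and 58.7% GC, did not pass. None of the 4 changes passed when trends with both GC content and transcript length were taken out of each library, and all 4 passed when the trend with GC content alone was taken out.

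Each sample had between 23121255 and 26214598 counts over all genes. The 9 genes together took between 0.105% and 0.123% of each sample's counts, with between 882 and 6728 counts per gene and sample. In the test across all genes (edgeR's quasi-likelihood test, Benjamini-Hochberg adjusted p under 0.05), 4545 of 15492 tested genes changed, or 29.3%. MYC did not pass, at 413 ± 8.01 CPM (read counts scaled to the depth of their library, here with TMM factors) in DMSO and 440 ± 16.0 CPM with doxycycline (SD, n = 3 per group; log2 fold change 0.09, edgeR adjusted p = 0.160). MYC passed as higher when libraries were scaled by upper quartile (0.14, edgeR adjusted p = 0.0357) or by total count only (0.14, edgeR adjusted p = 0.0281). Counts over a whole gene do not measure whether it was cut. All 10 markers of T cells and T-ALL were tested, and their summed level was 2989 to 3101 CPM in DMSO and 3066 to 3208 CPM in doxycycline. Of these 10 markers, 2 rose and 1 fell, beside 13.8% and 15.5% of all tested genes. The summed level of 5 B cell markers was 6.11 to 8.09 CPM in DMSO and 10.7 to 12.4 CPM in doxycycline with MS4A1 at 0, and that of 5 myeloid markers was 1.05 to 1.19 CPM and 2.13 to 2.20 CPM with CD33 at 0. The 4 erythroid and the 4 epithelial markers summed to at most 0.198 and 0.0793 CPM, with HBB, EPCAM and KRT18 at 0. In bulk RNA, fewer cells that express a gene and less of its RNA per cell cannot be told apart.

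The sequences just before the starts of TSC2, which rose, and RHEB, which fell, are shown because the proteins act directly on each other and the RNAs moved in opposite directions. Capitals mark CACGTG, the E-box that MYC and related factors can bind, searched on both strands, on which it reads the same. Each stretch is the 250 bases upstream of a start, taken from RefSeq on build GRCh38.p14, at chr16:2047735-2047984 on the plus strand for TSC2 and chr7:151519896-151520145 on the minus strand for RHEB.
TSC2: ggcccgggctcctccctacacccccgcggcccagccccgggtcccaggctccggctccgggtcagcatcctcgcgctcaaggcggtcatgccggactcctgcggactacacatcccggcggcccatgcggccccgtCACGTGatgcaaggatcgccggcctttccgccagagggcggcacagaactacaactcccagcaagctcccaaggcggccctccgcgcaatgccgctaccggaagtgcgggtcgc
RHEB: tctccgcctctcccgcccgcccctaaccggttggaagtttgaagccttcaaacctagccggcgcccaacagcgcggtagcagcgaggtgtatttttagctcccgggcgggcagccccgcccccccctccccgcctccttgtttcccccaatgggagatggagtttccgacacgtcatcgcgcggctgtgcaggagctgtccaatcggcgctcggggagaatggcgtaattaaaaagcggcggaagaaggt
The E-box of TSC2 begins 114 bases before the start used here. TSC2 has another RefSeq start, and its window, chr16:2047952-2048251, holds 0 matches. The TSC2 stretch shown was chosen for holding the motif, while RHEB was shown with 0 matches. Over windows of 300 bases (250 before to 50 after a start), RefSeq gave 16 windows for all 9 genes, since several have more than 1 start. The motif was in 1 of the 16, against 2548 of 35116 windows of all genes, or 7.26%. A match describes these letters and shows no binding, and a window without one says nothing of the factor.

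PIK3CD encodes p110 delta, the catalytic subunit of class I PI3 kinase that predominates in lymphocytes. Its level was 159, 162 and 151 CPM in DMSO replicates 1, 2 and 3 and 182, 181 and 188 CPM in doxycycline replicates 1, 2 and 3. All doxycycline samples lay above all DMSO samples. PIK3CD rose from 158 ± 5.94 to 183 ± 3.85 CPM (SD, n = 3 each), which is 0.22 on the log2 scale (standard error, SE, 0.049; edgeR adjusted p = 0.00144). PIK3R1 encodes p85 alpha and its shorter forms, which stabilise and restrain the catalytic subunits. It had levels of 59.1, 52.3 and 58.3 CPM in DMSO replicates 1, 2 and 3, against 50.3, 57.5 and 56.7 CPM with doxycycline. The groups overlapped, and 1 sample of each group was below the other 4 samples. The log2 fold change of PIK3R1 was -0.05, with a 95% interval of -0.17 to 0.08 (edgeR adjusted p = 0.627).

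INPP5D encodes SHIP1, the blood-cell phosphatase that removes the 5-phosphate of PIP3. Its level was 199.9, 198 and 185 CPM in DMSO and 237, 219.7 and 222 CPM in doxycycline replicates 1, 2 and 3. The groups did not overlap, and the lowest DMSO sample was replicate 3, as for PIK3CD and TSC2. INPP5D rose from 194 ± 8.19 to 226 ± 9.14 CPM (SD, n = 3 each), by 0.22 on the log2 scale (SE 0.050, edgeR adjusted p = 0.00186). AKT1 encodes the kinase that PIP3 recruits. It had levels of 47.0, 46.2 and 44.97 CPM in DMSO replicates 1, 2 and 3, against 49.0, 49.6 and 48.7 CPM with doxycycline. Although the groups did not overlap, AKT1 did not pass, at a log2 fold change of 0.09 with a 95% interval of -0.02 to 0.21 (edgeR adjusted p = 0.225).

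TSC1 and TSC2 encode hamartin, which stabilises the complex, and tuberin, whose domain makes RHEB hydrolyse its GTP. TSC2 had levels of 169, 169.6 and 156 CPM in DMSO replicates 1, 2 and 3, against 205, 186 and 197 CPM with doxycycline. All doxycycline samples were above all DMSO samples. TSC2 rose from 165 ± 7.54 to 196 ± 10.0 CPM (SD, n = 3 each), by 0.25 on the log2 scale (SE 0.052, edgeR adjusted p = 8.01e-04). TSC1 had levels of 62.9, 59.2 and 66.1 CPM in DMSO replicates 1, 2 and 3, against 68.8, 66.1 and 68.4 CPM with doxycycline. DMSO replicate 3 and doxycycline replicate 2 lay side by side at the border between the groups. TSC1 did not pass, at 0.11 on the log2 scale with a 95% interval from just under 0 to 0.23 (edgeR adjusted p = 0.128). It passed as higher with upper-quartile scaling (0.16, edgeR adjusted p = 0.0308), with library size alone (0.16, edgeR adjusted p = 0.0427) and with the GC trend alone taken out (0.15, edgeR adjusted p = 0.0259).

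RHEB encodes the GTPase that activates mTORC1 and is the target of TSC2. Its level was 39.1, 42.1 and 38.5 CPM in DMSO and 34.8, 34.0 and 33.6 CPM in doxycycline replicates 1, 2 and 3. Every doxycycline sample was below every DMSO sample, and the doxycycline samples lay close together. RHEB fell by 0.23 on the log2 scale (SE 0.060, edgeR adjusted p = 0.00601), from 39.9 ± 1.94 to 34.1 ± 0.601 CPM (SD, n = 3 each). Copies of RHEB elsewhere in the genome took few counts: the pseudogenes RHEBP1, RHEBP2 and RHEBP3 had at most 13 counts over all 6 samples, against 5597 for RHEB.

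MTOR encodes the kinase itself. It had levels of 247, 233 and 228 CPM in DMSO replicates 1, 2 and 3, against 255, 242 and 251 CPM with doxycycline. DMSO replicate 1 lay within the range of the doxycycline samples. MTOR did not pass, at a log2 fold change of 0.08 with a 95% interval of -0.02 to 0.18 (edgeR adjusted p = 0.232). RPTOR encodes Raptor, the scaffold that defines mTORC1. Its level was 139, 139.7 and 136 CPM in DMSO and 143, 136 and 141 CPM in doxycycline replicates 1, 2 and 3. On the log2 scale RPTOR had the smallest difference of the 9 genes in size. The groups overlapped, and the log2 fold change of RPTOR was 0.02 with a 95% interval of -0.08 to 0.12 (edgeR adjusted p = 0.787).

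**Figure D1:**
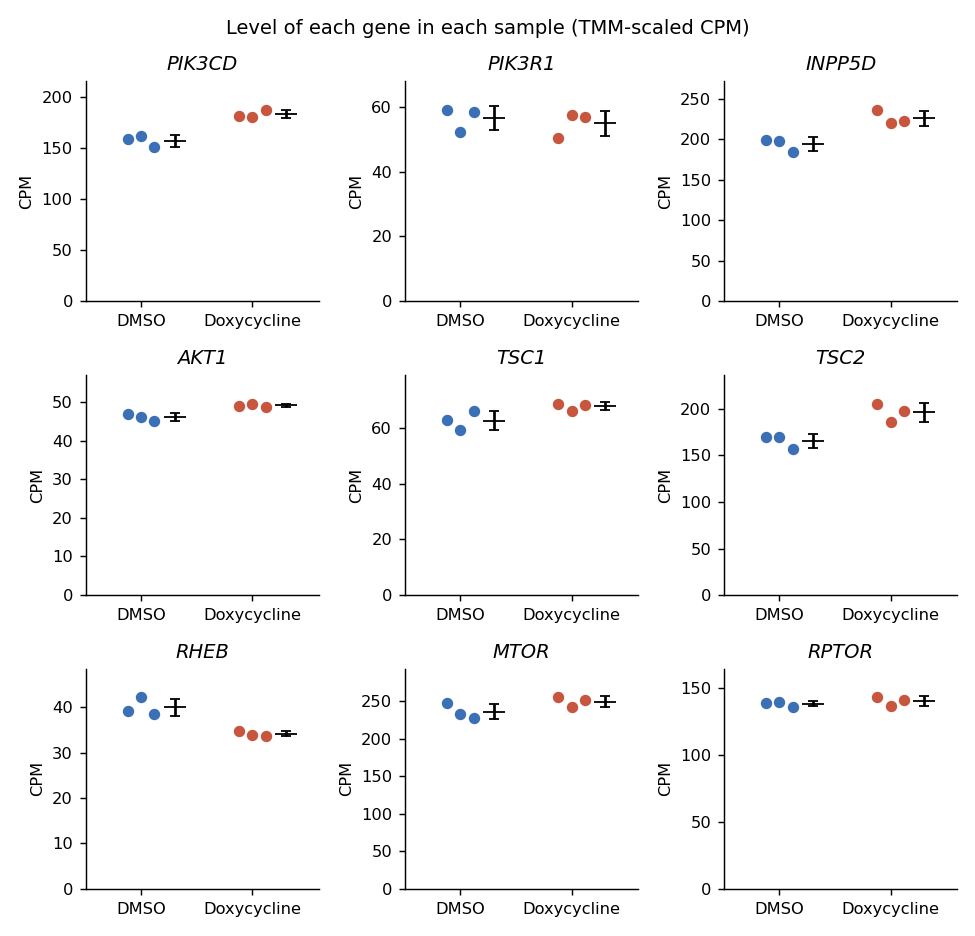
Level of each of the 9 genes in TMM-scaled CPM (vertical axes, from 0) in the 3 DMSO samples (blue) and the 3 doxycycline samples (red), in order of replicate number, with the mean and SD of each group beside them in black. The groups are apart for PIK3CD, INPP5D, TSC2 and RHEB, narrowly apart for AKT1 and TSC1, and overlap for PIK3R1, MTOR and RPTOR.

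In all, 3 of the 9 genes rose and 1 fell, beside 13.8% of all tested genes that rose and 15.5% that fell. The median log2 fold change was 0.09 over the 9 genes and 0.00 over all tested genes, and with the trends of GC content and length taken out it was 0.010 and 0.015. The groups did not overlap for 6 of the 9, where 41.7% of all tested genes showed no overlap. In size, the changes of TSC2, RHEB, INPP5D and PIK3CD were larger than or equal to those of 69.6%, 65.6%, 64.3% and 64.2% of all tested genes, and that of RPTOR of 7.17%. The authors' deposited table, their own DESeq2 comparison, has the same 3 genes higher and the same 1 lower at an adjusted p-value under 0.05, where 25.4% of genes with an adjusted p-value passed. The authors' deposited table gives log2 fold changes of 0.24 for TSC2, 0.21 for PIK3CD, 0.21 for INPP5D and -0.24 for RHEB. Each of these 4 genes also passed in the same direction when any 1 of the 6 samples was left out.

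The share of all genes that rose or fell under each setting stands beside these counts. With library size alone 17.8% rose and 10.4% fell, with upper-quartile scaling 18.5% and 10.2%, by DESeq2 9.79% and 15.6%, with no filter on low counts 6.33% and 8.34%, and with a replicate block 12.9% and 14.2%. With the length trend alone taken out 16.0% rose and 14.6% fell. Leaving out DMSO replicates 1, 2 and 3 in turn, 9.76%, 12.7% and 11.8% rose and 11.6%, 14.7% and 14.3% fell. Leaving out doxycycline replicates 1, 2 and 3 in turn, 10.2%, 11.7% and 10.4% rose and 11.4%, 13.0% and 11.2% fell, and without DMSO replicate 2 and doxycycline replicate 1 together 10.4% rose and 12.2% fell. In each of these settings 3 or more of the 9 genes rose and 1 fell.

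Compared per length of transcript, the genes stood in the following order in DMSO. The scale here is CPM per kilobase of the longest protein-coding transcript in GENCODE 29, which may not be the isoform these cells use. INPP5D was highest at 36.8 ± 1.55, then PIK3CD at 28.7 ± 1.08, MTOR at 27.2 ± 1.18, TSC2 at 26.02 ± 1.19, RPTOR at 21.6 ± 0.300, RHEB at 19.2 ± 0.934, AKT1 at 11.8 ± 0.256, PIK3R1 at 8.07 ± 0.526 and TSC1 at 7.198 ± 0.391 CPM per kilobase (SD, n = 3). Neighbours whose DMSO samples overlapped were PIK3CD with MTOR, MTOR with TSC2, and PIK3R1 with TSC1. On this scale the catalytic subunit PIK3CD thus stood above its partner PIK3R1, and TSC2 above TSC1. In doxycycline TSC2 stood above MTOR, at 30.9 ± 1.58 against 28.8 ± 0.784 CPM per kilobase (SD, n = 3 each), with overlapping samples. The value of AKT1 depends most on the transcript: its longest transcript of any type, which GENCODE lists as a retained intron, is 8396 bases long against 3916 for the protein-coding one, and gives 5.48 CPM per kilobase in DMSO.

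**Figure D2:**
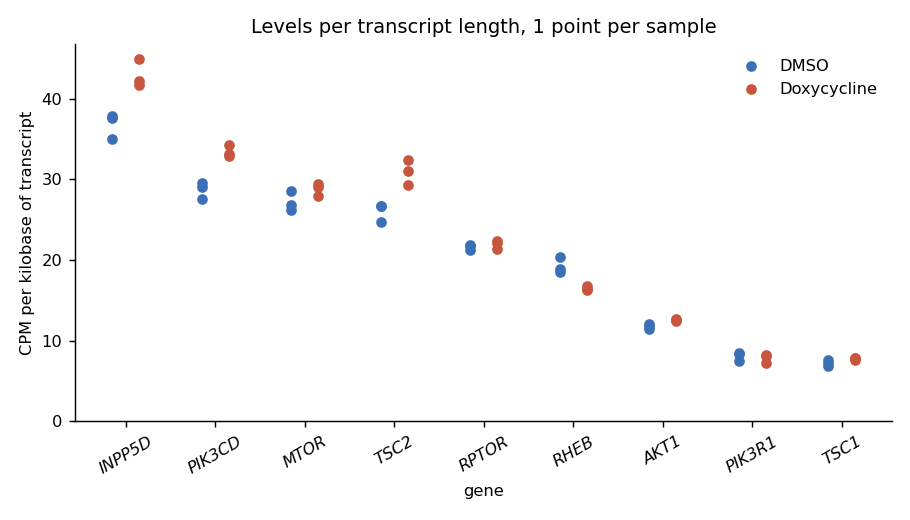
Level per kilobase of the longest protein-coding transcript (vertical axis, CPM per kilobase, from 0) for each gene in order of its DMSO mean, with 1 point for each DMSO sample (blue) and doxycycline sample (red). INPP5D is highest in both groups, at 36.8 CPM per kilobase in DMSO, and PIK3R1 and TSC1 are lowest.

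Ratios between genes of 1 sample do not depend on how libraries are scaled, and 4 pairs were formed by role after the values had been seen, so they are given with no test. The log2 ratio of RHEB to TSC2 was -2.11, -2.01 and -2.02 in DMSO and -2.56, -2.45 and -2.55 in doxycycline replicates 1, 2 and 3. RHEB RNA therefore stood lower against TSC2 RNA in every doxycycline sample, which restates the opposite changes of these genes given above. The difference was 0.47 on the log2 scale between the group means of -2.05 ± 0.056 and -2.52 ± 0.062 (SD, n = 3 each). The fitted difference, RHEB minus TSC2, was -0.47, and it was -0.31 with the GC trend alone taken out and -0.16 with the trends of GC content and length taken out. The log2 ratio of the kinase PIK3CD to the phosphatase INPP5D was -0.30 ± 0.021 in DMSO and -0.30 ± 0.070 in doxycycline (SD, n = 3 each), with overlapping groups. The log2 ratio of PIK3CD to PIK3R1 was 1.43, 1.63 and 1.37 in DMSO and 1.86, 1.65 and 1.73 in doxycycline replicates 1, 2 and 3, with no overlap. The fitted difference, PIK3CD minus PIK3R1, was 0.26, and it was 0.068 with the GC trend alone taken out and 0.055 with both trends taken out. The log2 ratio of MTOR to RPTOR was 0.77 ± 0.053 in DMSO and 0.83 ± 0.0047 in doxycycline (SD, n = 3 each), with overlapping groups. The fitted difference, MTOR minus RPTOR, was 0.060, and it was 0.16 with the GC trend alone taken out and 0.13 with both trends taken out.

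GC content moved with these results. Over 10 equal bins of tested genes by the GC content of their transcript, the median log2 fold change ran from -0.13 in the lowest bin to 0.17 in the highest, and the share of genes that rose ran from 2.66% to 36.1%. TSC2, PIK3CD and INPP5D have 60.5%, 57.6% and 56.5% GC, in bins where 30.7%, 22.1% and 22.1% of genes rose. RHEB has 48.0% GC, in a bin where 15.8% of genes fell. TSC2, PIK3CD and INPP5D lay above the median of their bin by 0.12, 0.14 and 0.14 on the log2 scale, and RHEB lay below it by 0.20. TSC2, PIK3CD and INPP5D were within the interquartile range of their bins, which reached 0.30, 0.27 and 0.27. RHEB was below the range of its bin, which began at -0.15. TSC1 and MTOR, which did not pass, lay above the median of their bin by 0.14 and 0.03. RPTOR and AKT1, with 59.8% and 58.7% GC, lay below the median of their bin, by 0.11 and 0.04. PIK3R1, the gene with the lowest GC content of the 9 at 40.3%, had a log2 fold change of -0.05 where its bin's median was -0.09.

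**Figure D3:**
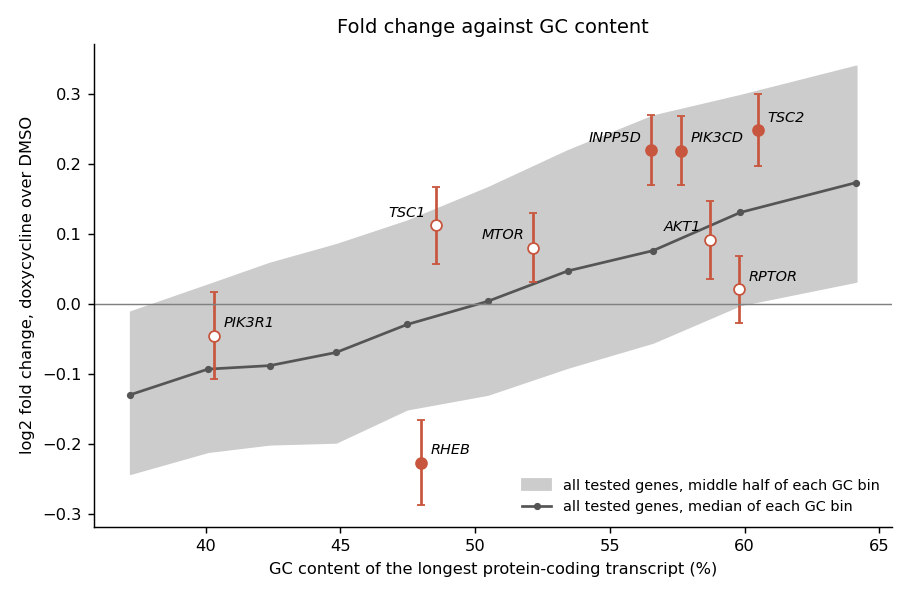
Log2 fold change of doxycycline over DMSO (vertical axis) against GC content of the longest protein-coding transcript in percent (horizontal axis). The line and the grey band are the median and the interquartile range of all tested genes in each of 10 GC bins, and the points are the 9 genes with their SE, filled where the adjusted p is under 0.05. TSC2, PIK3CD and INPP5D lie above a line that itself rises from -0.13 to 0.17, but within the grey band. RHEB lies below both the line and the band.

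With the GC trend alone taken out of each library, PIK3CD rose by 0.14 (edgeR adjusted p = 0.0188), INPP5D by 0.15 (edgeR adjusted p = 0.0109), TSC2 by 0.13 (edgeR adjusted p = 0.0258) and TSC1 by 0.15 (edgeR adjusted p = 0.0259) on the log2 scale, and RHEB fell by 0.18 (edgeR adjusted p = 0.0137). Of all genes 13.0% then rose and 13.2% fell. With the trends of GC content and length both taken out, 0 of the 9 rose, beside 10.8% of all genes, and 1 fell, beside 11.6% (22.3% in either direction). The shares were 10.5% and 11.3% with a replicate block added, and 10.8% and 11.4% with the longest transcript of any type. PIK3CD then stood at 0.065 (edgeR adjusted p = 0.258), INPP5D at 0.087 (edgeR adjusted p = 0.130), TSC2 at 0.035 (edgeR adjusted p = 0.592) and RHEB at -0.13 (edgeR adjusted p = 0.0689). The 1 that fell was RPTOR, by 0.18 (SE 0.038, edgeR adjusted p = 0.00144), which did not pass without the correction and whose value with the GC trend alone was -0.09 (edgeR adjusted p = 0.119). AKT1 stood at -0.04 (edgeR adjusted p = 0.629), but fell by 0.17 (edgeR adjusted p = 0.0120) when GC content and length were taken from its longer retained-intron transcript. A real change that follows GC content or length is removed too, and how much of each fold change is of either kind was not tested.

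**Figure D4:**
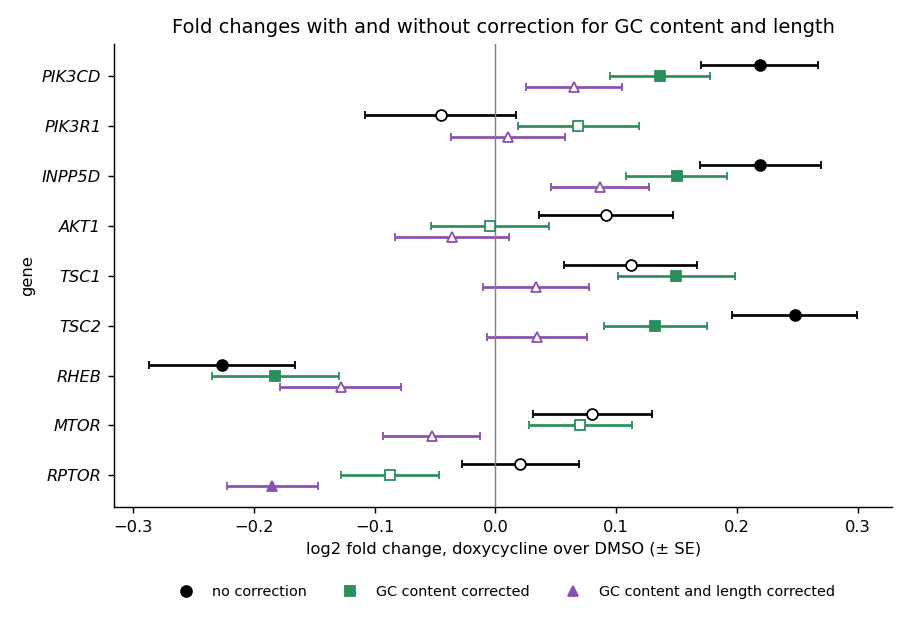
Log2 fold change of doxycycline over DMSO with its SE (horizontal axis) for the 9 genes, without correction (black circles), with the GC trend taken out (green squares) and with the trends of GC content and length taken out (purple triangles). Filled symbols have an adjusted p under 0.05: PIK3CD, INPP5D, TSC2 and RHEB are filled without correction and with GC alone, TSC1 with GC alone, and RPTOR with both trends, at -0.18.

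Overlapping genes limit the reading of 3 of the 9, because the strand setting of the counting is not given in the sources used here. On the opposite strand in GENCODE 29, CLSTN1 overlaps PIK3CD, PKD1 and NTHL1 overlap TSC2, and GFI1B overlaps TSC1. CLSTN1 and PKD1 rose as well, by 0.15 (edgeR adjusted p = 0.0185) and 0.31 (edgeR adjusted p = 5.11e-05), and their counts over all samples equalled 214% of those of PIK3CD and 61.8% of those of TSC2. GFI1B rose by 0.30 (edgeR adjusted p = 0.0105), with 31.2% of the counts of TSC1, and NTHL1 stood at 0.01 (edgeR adjusted p = 0.931). Their part in the results was not tested. For INPP5D, RHEB, MTOR, RPTOR and AKT1 the counts of each overlapping gene were at most 0.118% of their own, and PIK3R1 had no overlapping gene.

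Among 98 other genes of the pathway, in 9 lists by role, 93 were tested, of which 14 rose and 12 fell, or 15.1% and 12.9%, beside 13.8% and 15.5% of all tested genes. Their median log2 fold change was -0.01. With the trends of GC content and length taken out, 7 of the 13 covered genes that rose and 7 of the 12 that fell passed again in the same direction. The lists were written with earlier results of these data known.

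Of 10 tested subunits of the other PI3 kinases, 3 rose and 0 fell (median 0.00). PIK3C2B, a class II PI3 kinase, was at 460, 430 and 448 CPM in DMSO replicates 1, 2 and 3, against 590, 539 and 581 CPM with doxycycline. It rose by 0.35 (SE 0.051, edgeR adjusted p = 1.76e-05), and by 0.21 with GC content and length corrected. PIK3CG and PIK3R6, the catalytic subunit p110 gamma and a regulatory partner of it, rose by 0.24 (edgeR adjusted p = 0.00910) and 0.75 (edgeR adjusted p = 4.06e-04), PIK3R6 at 2.41 ± 0.099 CPM in DMSO and 4.06 ± 0.296 CPM with doxycycline (SD, n = 3 per group). PIK3CG did not pass without doxycycline replicate 3 (edgeR adjusted p = 0.0699). PIK3CA and PIK3CB, the catalytic subunits found in most tissues, stood at -0.09 and -0.11 and did not pass (edgeR adjusted p = 0.274 and 0.131).

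Of 10 adaptors, receptors and inhibitors of PI3K, 1 rose and 1 fell (median 0.08). PIK3IP1, a membrane protein that restrains PI3K in T cells, rose by 1.23 (SE 0.271, edgeR adjusted p = 0.00129), from 0.610 ± 0.159 to 1.44 ± 0.248 CPM (SD, n = 3 each), with between 12 and 45 counts per sample. PIK3AP1, the adaptor BCAP that couples receptors to PI3K, fell by 0.48 (SE 0.114, edgeR adjusted p = 0.00242), from 7.44 ± 0.837 to 5.32 ± 0.339 CPM (SD, n = 3 each). Both passed under all alternatives run. The adaptor GAB2 stood at 0.12 (edgeR adjusted p = 0.0757).

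Of 7 tested phosphatases of phosphoinositides or of AKT, 2 rose and 0 fell (median 0.09). INPPL1, the SHIP2 relative of INPP5D, was at 198, 204 and 194 CPM in DMSO replicates 1, 2 and 3, against 247, 235 and 240.2 CPM with doxycycline and rose by 0.28 (SE 0.048, edgeR adjusted p = 1.16e-04). INPP5E rose by 0.24 (edgeR adjusted p = 0.00188). They have 61.5% and 64.0% GC, and with GC content and length corrected they stood at 0.10 and 0.06 and did not pass (edgeR adjusted p = 0.0678 and 0.307). INPP5K stood at 0.09 (edgeR adjusted p = 0.262).

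Of 10 AKT-family kinases and AKT substrates, 0 rose and 2 fell (median -0.01). AKT1S1, or PRAS40, an AKT substrate that inhibits mTORC1, fell by 0.16 (SE 0.058, edgeR adjusted p = 0.0346) and by 0.31 with GC content and length corrected. It did not pass with upper-quartile scaling (edgeR adjusted p = 0.139), library size alone (0.122) or a replicate block (0.0545). Nor did it pass without DMSO replicate 2 (edgeR adjusted p = 0.0869) or 3 (0.0986), or doxycycline replicate 2 (0.0610) or 3 (0.167). Without DMSO replicate 2 and doxycycline replicate 1 together it also missed the threshold (edgeR adjusted p = 0.0782). SGK3 fell by 0.55 (edgeR adjusted p = 0.0358) at 2.74 CPM in DMSO and 1.87 CPM in doxycycline, and passed in only 4 of its 17 alternatives. It missed the threshold without any 1 of DMSO replicates 1, 2 and 3 or of doxycycline replicates 1 and 3, with a log2 fold change of -0.33 without doxycycline replicate 1. GSK3B, a kinase that AKT inhibits, stood at 0.11 (edgeR adjusted p = 0.143) and rose by 0.13 with GC content and length corrected (edgeR adjusted p = 0.0235).

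Of 8 tested parts and assembly factors of the mTOR complexes, 1 rose and 1 fell (median -0.06). PRR5L, a partner of mTOR complex 2, rose by 0.35 (edgeR adjusted p = 0.0224) at 5.07 and 6.46 CPM, but not by DESeq2 (adjusted p = 0.108) or without DMSO replicate 1 (edgeR adjusted p = 0.106), doxycycline replicate 2 (0.0684) or doxycycline replicate 3 (0.0936). TTI1, which helps fold and assemble mTOR, fell by 0.16 (edgeR adjusted p = 0.0181), but not with upper-quartile scaling (edgeR adjusted p = 0.0972), library size alone (0.0750), or without DMSO replicate 2 (0.0564) or doxycycline replicate 3 (0.0900). Without DMSO replicate 2 and doxycycline replicate 1 together TTI1 did not pass either (edgeR adjusted p = 0.0599). MAPKAP1, the mTOR complex 2 subunit SIN1, stood at -0.10 (edgeR adjusted p = 0.128).

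Of 12 tested genes of the TSC complex, AMPK and stress inputs, 3 rose and 1 fell (median -0.01). DDIT4, or REDD1, a stress protein that restrains mTORC1 through the TSC complex, was at 7.02, 5.54 and 5.85 CPM in DMSO replicates 1, 2 and 3, against 9.26, 9.34 and 9.19 CPM with doxycycline. It rose by 0.59 (SE 0.105, edgeR adjusted p = 1.69e-04), and by 0.56 with GC content and length corrected. SESN3 and SESN2, sestrins that restrain mTORC1, rose by 0.60 (SE 0.120, edgeR adjusted p = 5.07e-04) and 0.26 (edgeR adjusted p = 0.00445), and with the correction SESN3 rose by 0.65 while SESN2 stood at 0.13 (edgeR adjusted p = 0.109). The gene that fell was TBC1D7, the third subunit of the TSC complex, by 0.28 (edgeR adjusted p = 0.00796), named after its value was seen. It stood at -0.12 with the correction (edgeR adjusted p = 0.235).

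Of 13 genes of the Rag GTPases, the Ragulator and proteins that act on them, 0 rose and 4 fell (median -0.09), or 30.8%, beside 15.5% of all genes. The Rag GTPases and the Ragulator bring mTORC1 to the lysosome when amino acids are present. With upper-quartile scaling 1 rose and 3 fell (18.5% and 10.2% of all genes), as with library size alone (17.8% and 10.4%). With the length trend alone taken out, 1 rose and 3 fell (16.0% and 14.6% of all genes). LAMTOR5, a Ragulator subunit, was at 55.3, 62.1 and 59.5 CPM in DMSO replicates 1, 2 and 3, against 48.3, 48.3 and 50.4 CPM with doxycycline and fell by 0.27 (SE 0.058, edgeR adjusted p = 0.00112). RRAGC fell by 0.28 (edgeR adjusted p = 0.00376) and LAMTOR3 by 0.26 (edgeR adjusted p = 0.00631). The other that fell was RRAGA, by 0.15 (edgeR adjusted p = 0.0491), named after its value was seen. With GC content and length corrected, LAMTOR5 fell by 0.13 (edgeR adjusted p = 0.0489) and RRAGC by 0.18 (edgeR adjusted p = 0.0478), while LAMTOR3 stood at -0.11 (edgeR adjusted p = 0.203) and RRAGA at -0.08 (edgeR adjusted p = 0.203). The list then had 2 falls among 13 genes, beside 11.6% of all genes. In the authors' deposited table, RRAGA has an adjusted p-value of 0.0590. RRAGC did not pass when GC content and length came from the longest transcript of any type.

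Of 12 genes of GATOR and KICSTOR, the complexes that relay amino acid levels to the Rag GTPases, 1 rose and 1 fell (median -0.02). SEH1L, also a subunit of the nuclear pore, was at 79.6, 76.0 and 77.0 CPM in DMSO replicates 1, 2 and 3, against 58.1, 61.7 and 63.8 CPM with doxycycline. It fell by 0.34 (SE 0.054, edgeR adjusted p = 4.70e-05), and by 0.18 with GC content and length corrected. MIOS stood at -0.20 (edgeR adjusted p = 0.0757).

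Of 11 targets and effectors of mTORC1, 3 rose and 2 fell (median -0.05). ULK1, the kinase that starts autophagy and that mTORC1 inhibits, was at 242, 244 and 233 CPM in DMSO replicates 1, 2 and 3, against 309, 291 and 289 CPM with doxycycline. It rose by 0.30 (SE 0.049, edgeR adjusted p = 5.46e-05) and stood at 0.08 with GC content and length corrected (edgeR adjusted p = 0.164). TFEB and TFE3, transcription factors of lysosomal genes that mTORC1 keeps in the cytoplasm, rose by 1.23 (edgeR adjusted p = 0.00737) and 0.22 (edgeR adjusted p = 0.00383). TFEB had only between 5 and 24 counts per sample and did not pass without DMSO replicate 1 (0.91, edgeR adjusted p = 0.0676), and TFE3 stood at 0.09 with the correction (edgeR adjusted p = 0.210). RPS6KB1, the S6 kinase that mTORC1 activates, fell by 0.23 (edgeR adjusted p = 0.00335), and stood at -0.12 with the correction (edgeR adjusted p = 0.0554). The other that fell was EIF4EBP1, the translation repressor 4E-BP1, by 0.15 (edgeR adjusted p = 0.0264), named after its value was seen.

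**Figure D5:**
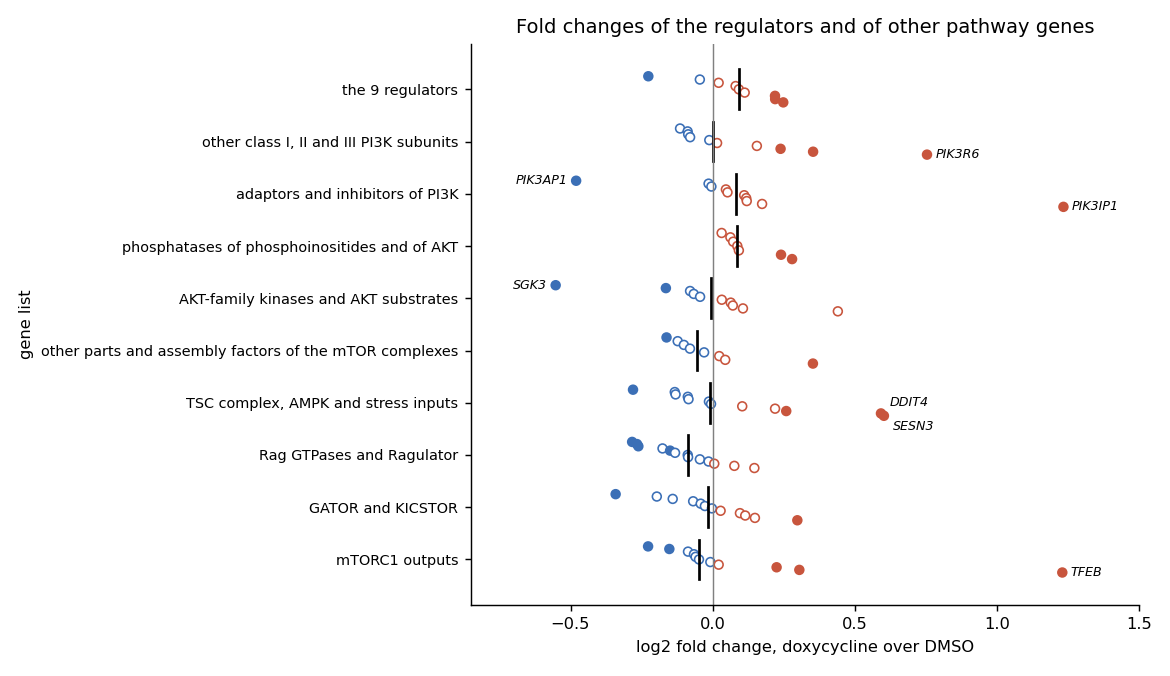
Log2 fold change of doxycycline over DMSO (horizontal axis) for the 9 regulators and for the tested genes of 9 other pathway lists (rows), 1 point per gene, red where higher and blue where lower, filled where the adjusted p is under 0.05, with the median of each row as a black bar. The medians run from -0.09 for the Rag GTPases and Ragulator to 0.09 for the 9 regulators, and the points farthest to the right are PIK3IP1 and TFEB, both at 1.23 and at low levels.

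The genes whose pattern was most like those of TSC2, PIK3CD and INPP5D, the 3 genes with the smallest p, were sought among the 9659 genes whose mean log2 CPM reached 3. Likeness was the root mean square difference of log2 CPM, each gene centred on its own mean, over the 6 samples. For TSC2 the nearest were MYO9B, at a distance of 0.015, and ELL at 0.016. For PIK3CD they were MEX3B at 0.018 and FAM160A2 at 0.019, and for INPP5D they were ELL at 0.014 and MLLT1 at 0.017. ELL, near to both TSC2 and INPP5D, was at 37.9, 37.6 and 35.2 CPM in DMSO replicates 1, 2 and 3, against 45.1, 41.0 and 42.9 CPM with doxycycline, with DMSO replicate 3 lowest and doxycycline replicate 1 highest, as in TSC2 and INPP5D.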

How the data were processed

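RNA of 6 samples was analysed from raw counts for each gene, as the authors deposited them. Per the submitters' processing notes, which give no roles, the tools were STAR 2.5.2a, featureCounts and DESeq2 1.12.4 and the build was hg19; annotation and strand setting are not given in the sources used here. A second deposited table, the authors' own DESeq2 result, lists for each gene a normalized mean signal, a log2 fold change and its standard error, a Wald score and p-values, of which fold changes, errors and adjusted p-values were used. Genes that passed filterByExpr at its defaults (15492 genes, at least 99.88% of the counts in a sample) were scaled with TMM and tested by edgeR 4.0.16 in R 4.3.3. The model held treatment only, and p-values were adjusted by Benjamini-Hochberg over all tested genes, with a threshold of 0.05. The test was checked on simulated counts, with 50 genes changed at each size. It called 30% of the changes of 1.15 fold, 74% of those of 1.25 fold and 100% of those of 1.5 fold. There were 10 false calls among 15282 genes. Changes of the size seen here can therefore be missed. The SE is the absolute log2 fold change over the root of F. Total counts per sample were 23121255 to 26214598, and counting error and the number of samples limit the precision.

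For the correction, GC content and length of the longest protein-coding transcript (GENCODE 29, 97.1% of tested genes; any type where none is protein-coding) were fitted in each library to deviations in log2 CPM, using natural splines of 5 degrees of freedom, a prior count of 2 and a mean log2 CPM minimum of 2, and entered as an offset. Alternatives were upper-quartile scaling, library size alone, DESeq2 1.42.0, no filter, a replicate block, leaving out samples and these offsets. GC alone, length alone and the any-type transcript were added after the data were seen. Members and lists were chosen with earlier results of these data known. By rule, the text names the 9 members, MYC, the 3 genes with the smallest p in each list, other called genes with an absolute log2 fold change of at least 0.5, and the 2 nearest patterns for 3 members. PIK3CA, PIK3CB, TBC1D7, RRAGA and EIF4EBP1 are named outside this rule, as are overlapping genes, pseudogenes and markers. Values of 1 pathway gene and 1 marker that this rule or the marker lists hold are not reported here.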

Additional observations from a re-analysis of the deposited data

How the results depend on the processing

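PIK3CD, INPP5D, TSC2 and RHEB kept direction and call in 14 of 17 alternatives each. The 3 exceptions took out GC content and length together: with no block, PIK3CD stood at 0.065, INPP5D at 0.087, TSC2 at 0.035 and RHEB at -0.13; with a replicate block as well at 0.065, 0.087, 0.035 and -0.13; with the longest transcript of any type at 0.069, 0.091, 0.039 and -0.12. RPTOR then fell, with log2 fold changes of -0.18 (edgeR adjusted p = 0.00144), -0.18 with the block (edgeR adjusted p = 0.00263) and -0.18 with the any-type transcript (edgeR adjusted p = 0.00195), and AKT1 fell at -0.17 with the any-type transcript; the cause was not tested. In each of these 3 fits 0 of the 9 rose, and 1, 1 and 2 fell; 8 of the other pathway genes rose in each, against 14. TSC1 passed as higher with upper-quartile scaling (0.160), library size alone (0.155) and GC alone (0.150, an alternative chosen after seeing the data, as was the any-type transcript). Upper-quartile scaling and library size alone gave 21 and 20 rises among the other pathway genes against 14, and 7 and 7 falls against 12, and leaving out DMSO replicate 2 and doxycycline replicate 1 together gave 7; without 1 sample there were between 6 and 11, with 6 without doxycycline replicate 3. Over all genes, falls numbered 1585 with upper-quartile scaling against 2408, and rises 1348 with DESeq2 against 2137; rises made up 47.0% of all calls, but 64.4% under upper-quartile scaling, 63.2% for library size alone and 38.5% for DESeq2. Leaving out 1 sample moved the log2 fold change of PIK3CD between 0.19 and 0.24, of INPP5D between 0.18 and 0.24, of TSC2 between 0.21 and 0.29 and of RHEB between -0.25 and -0.19, with no call lost. Deviations of same-numbered samples from their group means correlated at r = -0.07, -0.27 and 0.10 over 9660 genes. Each group was centred on its own mean, so these values cannot decide whether same numbers mark shared cultures. The highest values were of differently numbered samples: DMSO replicate 2 with doxycycline replicate 1 (0.38), DMSO replicate 3 with doxycycline replicate 2 (0.30) and DMSO replicate 1 with doxycycline replicate 3 (0.11). The remaining pairs of different numbers were negative, down to -0.34 for DMSO replicate 3 with doxycycline replicate 1. With a replicate block alone 3 of the 9 rose and 1 fell, and among the named pathway genes AKT1S1 did not pass (-0.16, edgeR adjusted p = 0.0545). Without correction PIK3R1, MTOR, RPTOR and AKT1 did not pass, but changes as large as the ends of their 95% intervals were not excluded.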
